A study of Mus musculus with 6 samples.

Results

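The unfolded protein response and chaperone genes of the mouse are described here in granulocyte-monocyte progenitors treated with a combination of 3 drugs. The set was a list of 39 gene symbols. All 39 were found among the 23337 genes of the deposited count table, and all 39 passed the filter on low counts that left 11283 genes for testing. It holds 25 genes of the endoplasmic reticulum (ER), namely 4 stress sensors and transcription factors, 9 heat shock protein family chaperones with their partners, 6 lectin chaperones and disulfide isomerases, and 6 genes of ER-associated degradation and translocation. The other members are 11 cytosolic and 3 mitochondrial chaperone genes, against which the ER genes were compared.

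The cells came from C57BL6 bone marrow and carried ER-HOXA9. In that name ER stands for estrogen receptor, whose fusion to the homeobox factor HOXA9 keeps progenitors immature while beta-estradiol is in the medium. All groups grew with 0.5 µM beta-estradiol and stem cell factor, so each of them, controls included, was held in the HOXA9 state. The 3 groups of 2 biological replicates were untreated cells at day 0, cells kept for 3 days with DMSO (vehicle), and cells kept for 3 days under the drugs together. These were GSK-LSD1 at 200 nM, which blocks the lysine demethylase LSD1, mercaptopurine at 5 µM, a purine analogue that disturbs nucleotide synthesis, and cerulenin at 5 µM, which blocks fatty acid synthase. No group had 1 drug alone, so the drugs cannot be told apart. By its title the study asked whether epigenetic and metabolic treatment together release such cells from their block in differentiation. Whether the replicates were separate derivations of the cells is not given, so p-values measure the spread between these libraries.

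Secreted and membrane proteins fold in the ER with the help of chaperones that bind exposed stretches, lectins that read sugar chains and isomerases that form disulfide bonds. When unfolded protein builds up there, the sensors ATF6, IRE1 (gene Ern1) and PERK (gene Eif2ak3) start the unfolded protein response. Cleaved ATF6 and the spliced form of XBP1 switch on ER chaperone and degradation genes, while PERK slows translation and raises ATF4. The cytosol relies on a separate set of HSP70 and HSP90 chaperones under the heat shock factor HSF1, and mitochondria fold imported protein with mortalin (Hspa9) and the chaperonin made of Hspd1 and Hspe1. Granulocyte-monocyte progenitors send large amounts of granule enzymes through the ER.

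Total counts per library ranged from 11305666 to 16948697. Levels are counts scaled to the effective library size after TMM normalisation, in the usual CPM unit, and a gene is called higher or lower where the edgeR quasi-likelihood test gave an adjusted p (Benjamini-Hochberg over all tested genes) under 0.05. The 10 progenitor markers, such as Kit, Cd34 and Mpo, were all detected and summed to 7616 to 7931 CPM at day 0, 8568 to 8811 under vehicle and 10650 to 11200 under the drugs. Neutrophil markers summed to 25.7 to 25.8, 26.5 to 32.8 and 3582 to 3895 CPM, of which Mmp8 made up nearly all under the drugs, and Camp and Retnlg were at 0 in every library. Monocyte and macrophage markers summed to 835 to 869, 534 to 575 and 1132 to 1215 CPM, with C1qa and C1qc at 0. Plasma cell markers, included because such cells are rich in ER, summed to 329 to 365, 284 to 288 and 397 to 422 CPM, nearly all of it Sdc1, while Igj, Tnfrsf17 and Irf4 had at most 10 counts in any library. Ltf, Ngp, S100a9 and C1qb also had at most 10 counts in any library. Against vehicle 4 of 6 tested neutrophil markers were called higher and 0 lower, with 2 negative changes. Of 8 tested monocyte and macrophage markers 7 were higher and 1 lower, and of 10 progenitor markers 4 and 2. Over all tested genes 18.1% were higher and 13.8% lower. Markers thus changed in both directions in the same libraries as the genes described below, and their part in the results was not tested. In bulk RNA a change in the share of cells of 1 kind and a change in RNA per cell cannot be told apart.

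Replicates differed by gene length. Among genes up to 1000 bp the median log2 difference of replicate 1 minus replicate 2 was 0.315 at day 0, -0.240 under vehicle and -0.072 under the drugs, and among genes over 4000 bp it was -0.104, 0.098 and 0.020. The short member Sec61b (552 bp) differed by 0.571, -0.548 and -0.167 in these groups, and Hspe1 (768 bp) by 0.300, -0.283 and -0.092. Longer members went both ways: Manf (2206 bp) differed by 0.258 at day 0 and -0.377 under vehicle, Hsp90aa1 (2850 bp) by -0.224 and 0.051, and Calr and Hspa5 were negative in all 3 groups. A refit with the length trend removed from every library was added after this was seen, and its counts for the members are given where they differ.

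**Figure D1:**
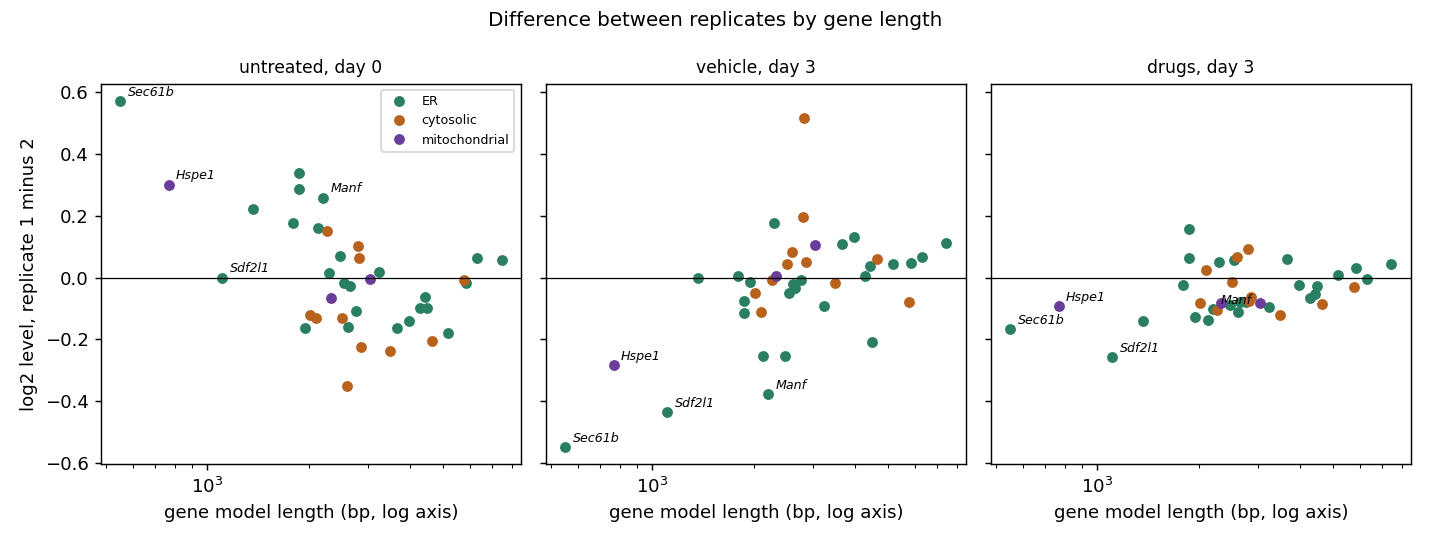
The difference between replicates 1 and 2 in log2 level (vertical axis) is plotted against gene model length in bp (horizontal log axis) for the 39 members, 1 panel per group and 1 point per gene, coloured by compartment. Sec61b and Hspe1, the shortest members, lie above 0 at day 0 and below 0 under vehicle, and lie nearer 0 under the drugs.

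Expressed per kilobase of gene model, levels ran from Hspa8 down to Hspa1a, and the most abundant members were housekeeping chaperones. In vehicle cells Hspa8, the constitutive cytosolic HSP70, stood first at 1119 ± 60.7 CPM per kb (SD, n = 2), followed by Hsp90ab1, the constitutive cytosolic HSP90, at 1037 ± 21.9. Both Hspa8 libraries lay above both Hsp90ab1 libraries, by means that differed by less than the sum of their SDs. Calr, the ER lectin calreticulin, had 982 ± 6.40 CPM per kb and Hsp90aa1, the inducible HSP90, 801 ± 20.2. Hsp90b1, the ER form of HSP90, had 419.8 ± 1.42, the chaperonin gene Hspd1 346 ± 0.696 and Hspa5, which encodes the ER chaperone BiP, 335 ± 3.55 CPM per kb. At the lower end were the sensors Atf6 with 8.70 ± 0.479 and Eif2ak3 with 6.45 ± 0.665, and the heat-inducible genes Hspa1b with 0.590 ± 0.161 and Hspa1a with 0.420 ± 0.0449. Between the highest and the lowest of the 3 group means, the 39 members differed by a factor of 1.04 (Canx) to 1.62 (Hspa9), with a median of 1.204.

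**Figure D2:**
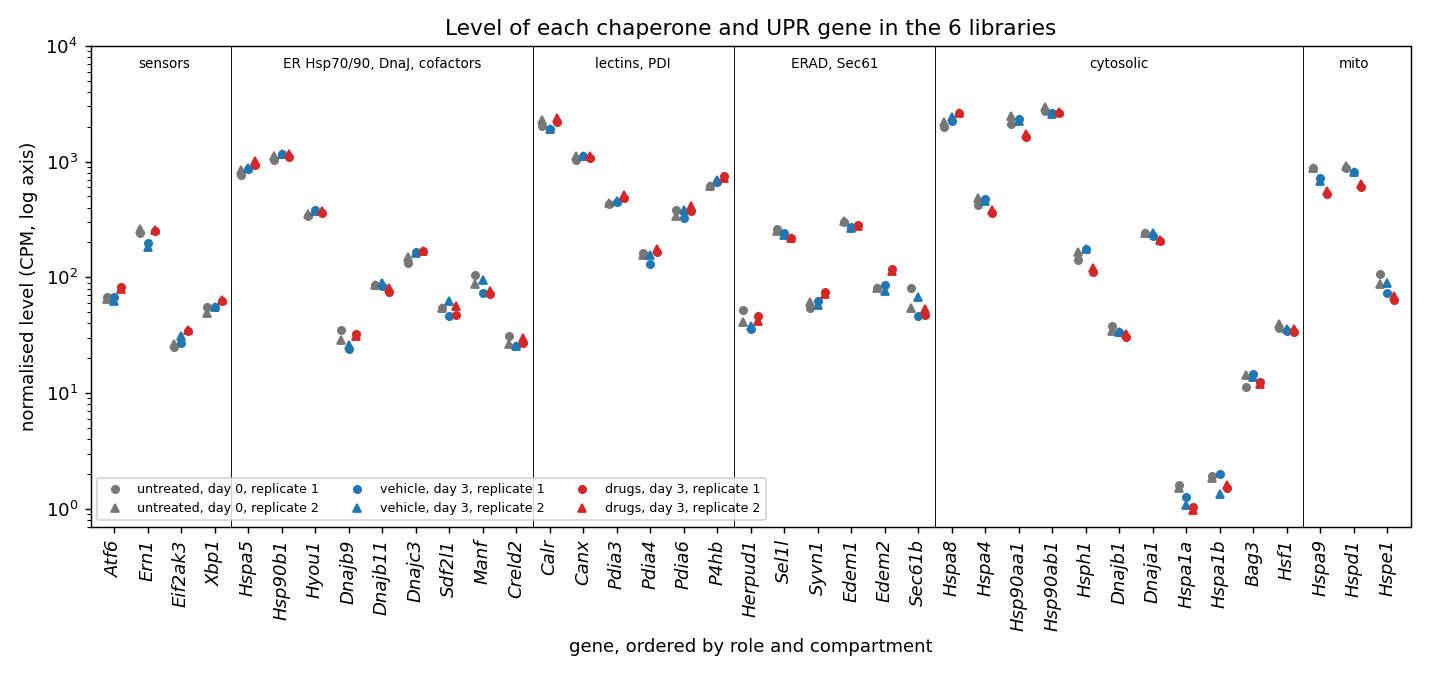
Normalised level in CPM (log axis) of each of the 39 genes in the 6 libraries, ordered by role, with circles for replicate 1 and triangles for replicate 2. The 6 points of most genes lie within a narrow band, and the mitochondrial genes at the right stand lowest under the drugs.

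In the first comparison, drugs against vehicle on day 3, the ER members that passed the test were higher and the cytosolic and mitochondrial members that passed it were lower. Of the 25 ER members 7 were higher and 0 lower, with a median log2 change of 0.14 and 8 negative changes among those 25. Of the 14 cytosolic and mitochondrial members 0 were higher and 5 lower, with a median of -0.23 and a positive change for 2, Hspa8 and Hsp90ab1. Over all tested genes 18.1% were called higher and 13.8% lower (31.9% in either direction), and the median change was 0.00075. Taken without regard to direction, 12 of 39 members were called, or 30.8%, a share near that of all genes. The division by compartment among these members is therefore the feature described here. Since the list was chosen with earlier results known, it was given no test of its own. The ER side did not extend to all ER genes outside the list, which are described below. Median log2 changes there were -0.025 for folding, -0.14 for translocation and N-glycosylation and -0.043 for degradation, and 0.20 for other genes that process or relay the response.

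The counts of 0 stand for edgeR. At an unadjusted p under 0.05, 10 ER members were higher and 0 lower, and 0 of the others were higher and 7 lower. DESeq2 called 4 ER members higher and 0 lower, and 0 of the others higher and 5 lower. With the length trend removed, 15 ER members were higher and 0 lower, against 1 (Hspa8) higher and 7 lower among the others. The counts leaned on both drug libraries. Without drugs replicate 1 they fell to 2 ER members higher and 1 other member lower, while the counts over all genes went from 2041 higher and 1560 lower to 1251 and 582. Without drugs replicate 2 they were 3 and 4, and without vehicle replicate 1 they were 4 and 5, with 1 ER member (Manf) then called lower.

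Ranges of the libraries gave the same division. Both drug libraries lay above both vehicle libraries for 16 ER members and below them for 3, whereas for the cytosolic and mitochondrial members this held for 2 and 10. Among all tested genes 35.1% lay above and 33.7% below in this way. The changes were small. Hsph1 was the only member whose fitted change passed 1.5-fold, against 1726 of the 11283 tested genes.

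**Figure D3:**
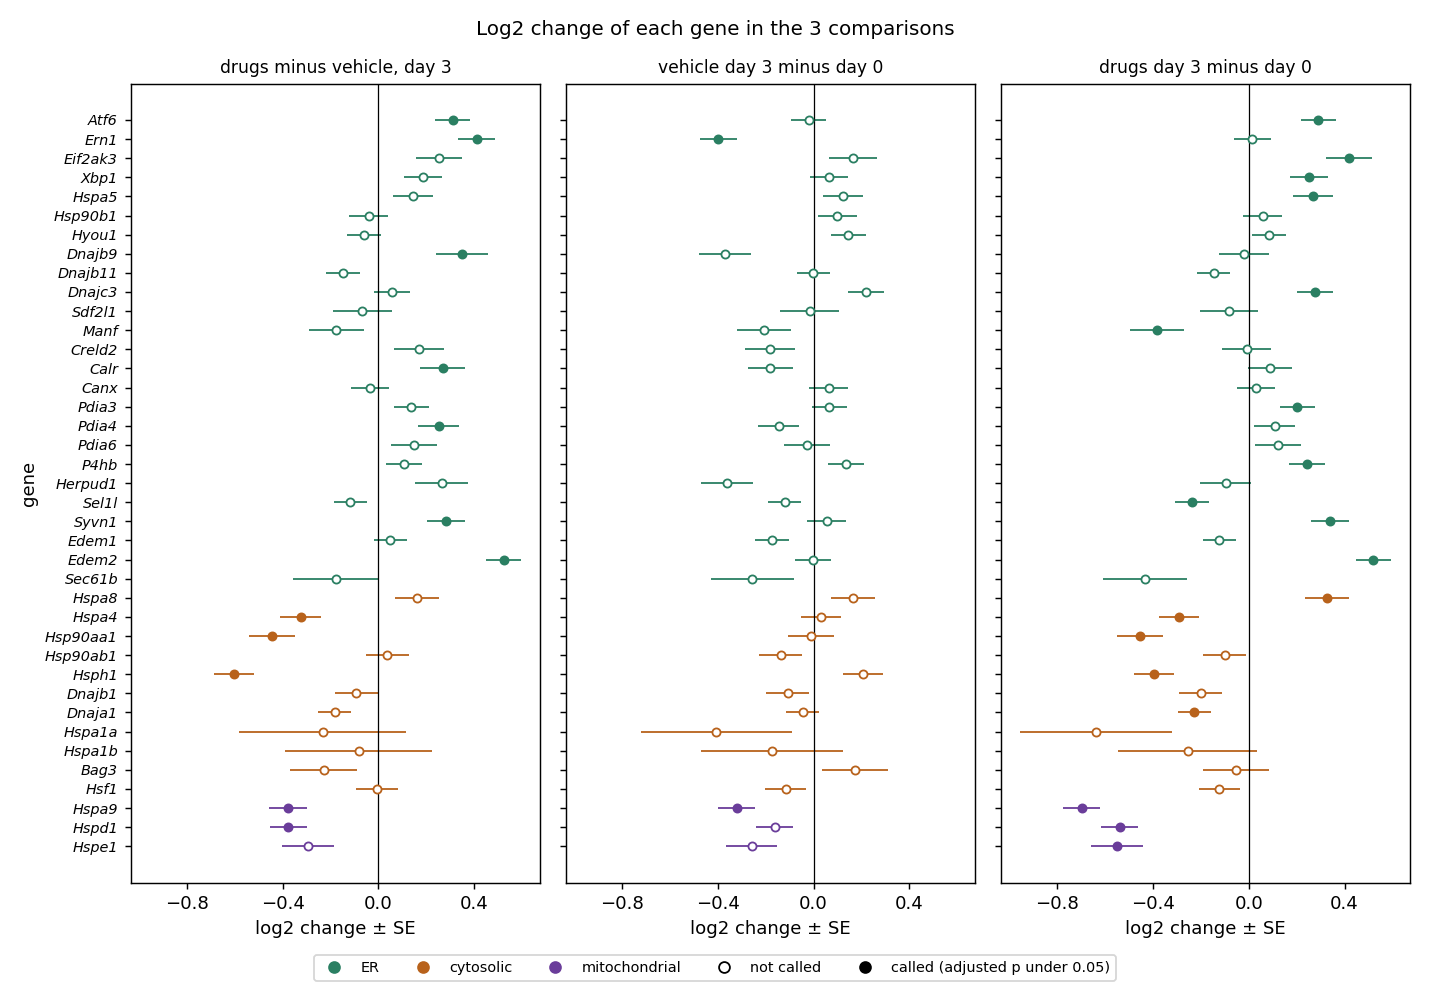
Log2 change ± SE (horizontal axis) of each of the 39 genes in drugs minus vehicle, vehicle minus day 0 and drugs minus day 0, with filled symbols for called genes and colours for compartments. In the first panel all filled ER symbols lie right of 0 and all filled cytosolic and mitochondrial symbols lie left of it.

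Promoters of some ER chaperone genes carry a known element, which is printed here for the ER members that hold it. The ER stress element (ERSE), bound by the factor NF-Y at its first part and by ATF6 or XBP1 at its last, is CCAAT, then 9 bases of any kind, then CCACG. It was searched on both strands of RefSeq promoter windows of 300 bases (250 before to 50 after each gene start, build GRCm38.p6, the patched release of mm10). Of the 22 ER members with a window 8 held it, against 0 of 9 cytosolic and mitochondrial members with a window and 0.119% of 32851 windows. The stretches below run 5′ to 3′ along the gene's own strand and lie upstream of the annotated start, with the ERSE in capitals. Where the capitals begin with CGTGG the element lies on the opposite strand. For BiP (Hspa5, plus strand, chr2:34771840-34772089) the whole stretch from 250 bases upstream to the start is shown, with other CCAAT-type letters left in lower case:
Hspa5: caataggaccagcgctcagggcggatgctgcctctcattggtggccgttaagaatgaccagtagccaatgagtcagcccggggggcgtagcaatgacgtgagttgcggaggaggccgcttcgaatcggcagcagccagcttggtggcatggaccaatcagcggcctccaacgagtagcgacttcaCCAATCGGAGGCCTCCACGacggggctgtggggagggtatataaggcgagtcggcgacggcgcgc
For the ER form of HSP90 (Hsp90b1, minus strand, chr10:86705518-86705671) the stretch holds 2 elements in opposite orientation:
Hsp90b1: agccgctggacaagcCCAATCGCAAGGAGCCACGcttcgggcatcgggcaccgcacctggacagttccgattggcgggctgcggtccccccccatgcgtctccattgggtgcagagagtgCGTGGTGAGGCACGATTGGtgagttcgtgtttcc
The other 6 stretches hold the element with 15 bases on either side, for Calr (minus strand, chr8:84847060-84847108), Canx (minus strand, chr11:50325785-50325833), Pdia6 (plus strand, chr12:17266476-17266524), Dnajc3 (plus strand, chr14:118937812-118937860), Creld2 (plus strand, chr15:88819505-88819553) and Syvn1 (plus strand, chr19:6046517-6046565):
Calr: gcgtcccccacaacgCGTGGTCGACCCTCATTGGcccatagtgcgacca
Canx: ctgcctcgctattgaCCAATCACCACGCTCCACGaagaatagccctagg
Pdia6: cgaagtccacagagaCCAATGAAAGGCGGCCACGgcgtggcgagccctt
Dnajc3: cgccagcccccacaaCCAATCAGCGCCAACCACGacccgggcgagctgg
Creld2: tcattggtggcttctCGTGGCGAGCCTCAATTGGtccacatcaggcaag
Syvn1: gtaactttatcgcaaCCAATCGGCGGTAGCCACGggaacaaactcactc

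The ER members with and without an exact ERSE match are set side by side here as a description. Among the 8 with an ERSE, 2 (Calr and Syvn1) were higher under the drugs than under vehicle and 0 lower, with a median log2 change of 0.15, and among the 14 ER members with a window and no ERSE 4 were higher and 0 lower, with a median of 0.16. For vehicle against day 0 the medians were 0.059 with an ERSE (0 higher, 0 lower) and -0.068 without (0 and 1), and for drugs against day 0 they were 0.11 (3 and 0) and -0.0031 (5 and 1). A second form, ERSE-II (ATTGG, 1 base, CCACG), was found in 0.0365% of windows and in the members Herpud1 and Dnajb11. Both are among the 14 counted above without an ERSE. Herpud1 also held the C/EBP-ATF element TGATGCAA, bound by ATF4 complexes and found in 0.895% of windows. That makes Herpud1 the member with elements of both branches, and its stretch is shown for that reason (plus strand, chr8:94386302-94386402, the ATF4 element on the opposite strand first and ERSE-II second in capitals):
Herpud1: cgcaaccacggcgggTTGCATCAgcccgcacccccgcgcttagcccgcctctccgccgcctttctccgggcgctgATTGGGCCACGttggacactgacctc
The XBP1 element TGACGTGG was present in 0.676% of windows and in 0 of the members. A match is a description of letters and does not show binding, and the lack of an exact match does not show that an element is absent. No promoter window was used for Atf6, Hyou1, Manf, Hspa8, Hsp90aa1, Hsp90ab1, Hsf1 and Hspa9.

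Among the sensors, Atf6 and Ern1 were called higher under the drugs than under vehicle. Ern1 encodes IRE1, the kinase and RNase that splices Xbp1 messenger RNA, and lies on chromosome 11 from 106397620 to 106487796. It had 239 and 264 in day 0 cells, 199.5 and 182 under vehicle and 252 and 256 under the drugs CPM. The vehicle libraries were the lowest of the 6, and the drug libraries lay within the range of day 0. Its log2 change was 0.41 ± 0.0777 against vehicle (adjusted p = 0.00145), -0.40 ± 0.0777 for vehicle against day 0 (adjusted p = 0.00828) and 0.01 ± 0.0769 for drugs against day 0 (adjusted p = 0.895). The first and second of these share the vehicle libraries, so their opposite signs are not independent. The rise against vehicle was called under all 14 alternatives, and the fall from day 0 was lost without vehicle replicate 2 (adjusted p = 0.0566, range over the alternatives 7.62e-05 to 0.0566).

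Atf6, the membrane-bound transcription factor on chromosome 1 from 170704457 to 170867771, had 67.01 and 64.5 in day 0 cells, 67.4 and 62.4 under vehicle and 81.8 and 79.3 under the drugs CPM. Both drug libraries stood above the other 4, which overlapped. The log2 change was 0.31 ± 0.0722 against vehicle (adjusted p = 0.00567) and 0.29 ± 0.0714 against day 0 (adjusted p = 0.00554). Without drugs replicate 1 or vehicle replicate 2 the first call was lost (adjusted p = 0.0798 and 0.0554; range 0.00207 to 0.0798), and the second without drugs replicate 1 (adjusted p = 0.0733) and with the length trend removed (log2 change 0.16, adjusted p = 0.0647; range 0.00167 to 0.0733).

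Eif2ak3, the gene of PERK, and Xbp1 passed the test against day 0 and not against vehicle. Eif2ak3 had 25.01 and 26.8 in day 0 cells, 26.9 and 31.1 under vehicle and 34.2 and 34.9 under the drugs CPM, so the drug libraries were the highest and vehicle lay between. Its log2 change was 0.25 ± 0.0965 against vehicle (adjusted p = 0.062) and 0.42 ± 0.0963 against day 0 (adjusted p = 0.00368), the second called under all 14 alternatives. Xbp1, on chromosome 11 from 5520967 to 5525872, had 55.8 and 49.4 in day 0 cells, 55.3 and 55.1 under vehicle and 62.2 and 63.2 under the drugs CPM. Its log2 change was 0.19 ± 0.0790 against vehicle (adjusted p = 0.0925) and 0.25 ± 0.0783 against day 0 (adjusted p = 0.0202). The second was lost with DESeq2 (adjusted p = 0.0823), without untreated replicate 2 (log2 change 0.16, adjusted p = 0.124) and without drugs replicate 1 or 2 (0.0994 and 0.137; range 0.000208 to 0.137), and it was 0.38 (adjusted p = 0.000208) with the length trend removed. Counts per gene do not tell the spliced from the unspliced form. Together the 4 genes summed to 387 and 404 CPM at day 0, 331 and 349 under vehicle and 430 and 433 under the drugs.

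The ER heat shock protein family chaperones Hspa5, Hsp90b1 and Hyou1 were not called against vehicle. Hspa5 (BiP), the HSP70 that holds the sensors inactive, had 759.5 and 848 in day 0 cells, 869 and 882 under vehicle and 931 and 1006 under the drugs CPM. The drug libraries were the highest of the 6, but the change against vehicle was not called (0.14 ± 0.0847, adjusted p = 0.216), while that against day 0 was (0.27 ± 0.0847, adjusted p = 0.0213). This second call was lost without untreated replicate 1 (adjusted p = 0.0927) and without drugs replicate 1 or 2 (0.0792 and 0.233; range 0.000497 to 0.233). Hsp90b1, the ER form of HSP90 also called GRP94, had 1040.3 and 1123 in day 0 cells, 1155 and 1161 under vehicle and 1095 and 1158 under the drugs CPM, with vehicle above day 0 and the drug libraries overlapping both (log2 change against vehicle -0.04 ± 0.0817, adjusted p = 0.746). Hyou1, an HSP110-type exchange factor for BiP, had 337 and 351 in day 0 cells, 386 and 375 under vehicle and 358 and 372 under the drugs CPM, with both drug libraries below both vehicle libraries by a margin that was not called (-0.06 ± 0.0718, adjusted p = 0.564).

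Of the DnaJ partners of BiP, Dnajb9 was called against vehicle and Dnajc3 and Dnajb11 were not. Dnajb9, the ER DnaJ protein ERdj4, had 35.2 and 28.8 in day 0 cells, 23.95 and 25.9 under vehicle and 32.5 and 31.1 under the drugs CPM. It was lowest under vehicle, and the drug libraries lay within the range of day 0, the same order as for Ern1. Its log2 change was 0.35 ± 0.109 against vehicle (adjusted p = 0.0263) and -0.37 ± 0.109 for vehicle against day 0 (adjusted p = 0.0558). The rise was lost under 5 of 14 alternatives, among them without vehicle replicate 1, drugs replicate 1 or drugs replicate 2 (adjusted p = 0.134, 0.159 and 0.0933; range 0.00314 to 0.159). Dnajc3, the PERK inhibitor p58IPK, had 132 and 149 in day 0 cells, 166 and 161 under vehicle and 171 and 169 under the drugs CPM. Day 0 lay below both day 3 groups, and the log2 change was 0.06 ± 0.0745 against vehicle (adjusted p = 0.604) and 0.28 ± 0.0746 against day 0 (adjusted p = 0.00973; range 0.000746 to 0.0867, lost without untreated replicate 1 and without either drug library). Dnajb11, another partner of BiP, had 83.3 to 88.9 CPM in the vehicle and day 0 libraries and 75.1 and 80.3 under the drugs (-0.15 ± 0.0705, adjusted p = 0.135).

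The small cofactors of this group were not called against vehicle. Manf, a secreted factor that also binds BiP, had 105 and 87.8 in day 0 cells, 72.96 and 94.8 under vehicle and 71.4 and 76.7 under the drugs CPM, and its vehicle libraries were far apart. The log2 change was -0.18 ± 0.115 against vehicle (adjusted p = 0.266) and -0.38 ± 0.113 against day 0 (adjusted p = 0.0153), so Manf fell from day 0 while Hspa5 rose. That fall was lost without untreated replicate 1 (log2 change -0.24, adjusted p = 0.123), without drugs replicate 1 (0.119) and with library totals in place of TMM (0.134; range 1.69e-05 to 0.134). Sdf2l1, a subunit of ER chaperone complexes with Dnajb11, had 54.6 and 54.6 in day 0 cells, 45.9 and 62.2 under vehicle and 46.8 and 55.95 under the drugs CPM, and all groups overlapped. Creld2, an ER stress protein with isomerase activity, had 25.5 and 25.6 CPM under vehicle and 27.3 and 30.1 under the drugs (0.17 ± 0.104, adjusted p = 0.233).

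Among lectins and disulfide isomerases, Calr and Pdia4 were called higher under the drugs than under vehicle but not than at day 0. The Calr paralog Canx was not called. Calr, the soluble lectin calreticulin on chromosome 8 from 84842088 to 84846931, had 2041 and 2283 in day 0 cells, 1899 and 1916 under vehicle and 2195 and 2400.5 under the drugs CPM. Vehicle was lowest, and the drug libraries overlapped day 0. The log2 change was 0.27 ± 0.0928 against vehicle (adjusted p = 0.0421) and 0.09 ± 0.0927 against day 0 (adjusted p = 0.463). The call was lost under 5 of 14 alternatives, among them without any 1 of the vehicle or drug libraries (adjusted p = 0.173, 0.165, 0.136 and 0.355; range 0.00227 to 0.355). Canx, its membrane-bound relative calnexin, had 1034 to 1121 CPM in all 6 libraries (log2 change against vehicle -0.03 ± 0.0805, adjusted p = 0.788).

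Pdia4, a disulfide isomerase also known as ERp72, had 163 and 155 in day 0 cells, 131 and 157 under vehicle and 166 and 177 under the drugs CPM. The lower drug library stood only a little above the higher vehicle library. Against day 0 the log2 change was 0.11 ± 0.0847 and was not called (adjusted p = 0.318). The call against vehicle came from a log2 change of 0.25 ± 0.0855 (adjusted p = 0.0382). It was lost under 6 of 14 alternatives, including without vehicle replicate 1 (log2 change 0.13), drugs replicate 1 or drugs replicate 2 (adjusted p = 0.331, 0.111 and 0.26; range 0.00333 to 0.331). The microRNA gene Mir704 overlaps Pdia4 in the table. P4hb, the founding protein disulfide isomerase, had 613 and 621 in day 0 cells, 667 and 689.9 under vehicle and 746 and 716 under the drugs CPM, with day 0 lowest and the drugs highest. It was not called against vehicle (0.11 ± 0.0749, adjusted p = 0.299) and was higher than at day 0 (0.24 ± 0.0750, adjusted p = 0.0191), a call lost under 3 of 14 alternatives, among them without drugs replicate 1 or 2 (adjusted p = 0.203 and 0.102; range 0.000158 to 0.203). Pdia3, the isomerase that works with calreticulin and calnexin, followed the same order with 430.0 and 438 in day 0 cells, 449 and 459.5 under vehicle and 486 and 513 under the drugs CPM (0.20 ± 0.0730 against day 0, adjusted p = 0.0385; range over alternatives 0.000629 to 0.307). That call was lost under 7 of 14 alternatives, including with only the 2 groups compared (adjusted p = 0.0527) and without any 1 library other than untreated replicate 2, with the highest p without drugs replicate 2. Pdia6, an isomerase that also binds IRE1, overlapped between all groups at 323 to 411 CPM (0.15 ± 0.0956 against vehicle, adjusted p = 0.258).

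Edem2 changed most among all ER members. It encodes a mannosidase-like protein that starts the trimming of misfolded glycoproteins for degradation, and lies on chromosome 2 from 155701673 to 155729475. The levels were 81.01 and 80.2 in day 0 cells, 85.3 and 75.5 under vehicle and 118 and 114 under the drugs CPM. Both drug libraries stood far above the other 4, which overlapped. The log2 change was 0.52 ± 0.0739 against vehicle (adjusted p = 0.00015), 0.52 ± 0.0733 against day 0 (adjusted p = 0.000114) and -0.0033 ± 0.0751 for vehicle against day 0. Both rises were called under all 14 alternatives. Its relative Edem1 had 265 to 305 CPM in the 6 libraries, was highest at day 0 and differed from vehicle by 0.05 ± 0.0696 (adjusted p = 0.628).

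The ubiquitin ligase Syvn1 and its partner Sel1l moved apart. Syvn1, also called HRD1, passes misfolded ER protein to the proteasome and had 54.5 and 61.00 in day 0 cells, 62.1 and 57.5 under vehicle and 74.3 and 71.4 under the drugs CPM, with the drug libraries above all others. Its log2 change was 0.28 ± 0.0798 against vehicle (adjusted p = 0.0163) and 0.34 ± 0.0792 against day 0 (adjusted p = 0.00419; 0.0582 without drugs replicate 1, range 0.000295 to 0.0582). The first was lost with DESeq2, without vehicle replicate 2 and without drugs replicate 1 or 2 (adjusted p = 0.0672, 0.114, 0.149 and 0.071; range 0.00185 to 0.149), and Mrpl49 overlaps the gene. Sel1l, which holds the ligase in its membrane complex, had 262 and 251 in day 0 cells, 242 and 231 under vehicle and 217 and 218 under the drugs CPM. It was not called against vehicle (-0.12 ± 0.0699, adjusted p = 0.229) and was lower than at day 0 (-0.24 ± 0.0696, adjusted p = 0.0151; range 0.0002 to 0.141), a call lost with library totals (log2 change -0.15, adjusted p = 0.107) and without drugs replicate 1 or 2 (0.141 and 0.107).

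Herpud1, a scaffold of the same ligase complex, had 52.4 and 41.5 in day 0 cells, 35.8 and 37.8 under vehicle and 46.7 and 41.9 under the drugs CPM. As for Ern1 and Dnajb9 the vehicle libraries were lowest, but neither step was called (log2 change 0.26 ± 0.110 against vehicle, adjusted p = 0.085, and -0.36 ± 0.109 for vehicle against day 0, adjusted p = 0.0637). Sec61b, a subunit of the channel through which proteins enter the ER, had 81.1 and 54.5 in day 0 cells, 46.6 and 68.1 under vehicle and 47.6 and 53.4 under the drugs CPM. Its day 0 and vehicle replicates differed more than its groups did, in the direction of the length pattern given above (log2 change against vehicle -0.18 ± 0.178, adjusted p = 0.485).

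In the cytosol, Hsph1, Hsp90aa1 and Hspa4 fell under the drugs while the constitutive Hspa8 and Hsp90ab1 were not called lower. Hsph1, the HSP110 exchange factor on chromosome 5 from 149616845 to 149636315, had 140.2 and 165 in day 0 cells, 175 and 177 under vehicle and 111 and 121 under the drugs CPM. The drug libraries were below all others and the vehicle libraries above all others. The log2 change was -0.60 ± 0.0842 against vehicle (adjusted p = 0.000141), called under all 14 alternatives, and -0.40 ± 0.0841 against day 0 (adjusted p = 0.00226; 0.0519 without drugs replicate 1, range 6.56e-06 to 0.0519). Hspa4, a second HSP110-type gene, had 423 and 487 in day 0 cells, 475 and 456 under vehicle and 360.4 and 382 under the drugs CPM and fell by a log2 change of -0.32 ± 0.0841 against vehicle (adjusted p = 0.0107). That call was lost without vehicle replicate 1 or either drug library (adjusted p = 0.0634, 0.154 and 0.0555; range 0.000296 to 0.154).

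Of the cytosolic HSP90 paralogs, 1 was called. Hsp90aa1, the inducible form on chromosome 12 from 110691036 to 110696395, had 2122 and 2479 in day 0 cells, 2324 and 2243 under vehicle and 1644 and 1718 under the drugs CPM, and both drug libraries lay below the other 4. Its log2 change was -0.44 ± 0.0957 against vehicle (adjusted p = 0.00362) and -0.45 ± 0.0957 against day 0 (adjusted p = 0.0022), and of the 14 alternatives both were lost only without drugs replicate 1 (adjusted p = 0.0831, range 3.15e-07 to 0.0831, and 0.0579, range 2.85e-07 to 0.0579). Hsp90ab1, the constitutive form on chromosome 17 from 45567778 to 45573261, had 2729.8 and 2986 in day 0 cells, 2638 and 2560.3 under vehicle and 2655 and 2681 under the drugs CPM. Its 3 groups did not overlap, with day 0 highest and vehicle lowest, but the drugs were close to vehicle (log2 change 0.04 ± 0.0900, adjusted p = 0.788). The ratio of Hsp90ab1 to Hsp90aa1 counts was 1.287 and 1.205 at day 0, 1.14 in both vehicle libraries, and 1.61 and 1.56 under the drugs. The transcripts of these paralogs shared 0% of their 50-base words. The ratio of Hsp90b1, the ER form, to Hsp90aa1 was 0.490 and 0.453, 0.497 and 0.518, and 0.666 and 0.674 in the same order. In both ratios the drug libraries lay above all others.

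Hspa8, the cytosolic HSP70 that every cell uses, had 2006 and 2197 in day 0 cells, 2264 and 2445 under vehicle and 2658 and 2611 under the drugs CPM, each group above the one before. It was not called against vehicle (0.16 ± 0.0910, adjusted p = 0.198) and was higher than at day 0 (0.33 ± 0.0911, adjusted p = 0.0115), a call lost without drugs replicate 1 or 2 (adjusted p = 0.127 and 0.0926; range 7.2e-05 to 0.127). Dnaja1, a DnaJ partner of HSP70 that Mir207 and Smu1 overlap, had 242 and 244 in day 0 cells, 229 and 242 under vehicle and 205 and 209 under the drugs CPM. It was lowest under the drugs and passed the test only against day 0 (-0.18 ± 0.0693 against vehicle, adjusted p = 0.0614; -0.23 ± 0.0691 against day 0, adjusted p = 0.0178, range 0.000478 to 0.175, lost with library totals, at a log2 change of -0.14, and without either drug library).

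The heat shock factor gene Hsf1 and the genes Dnajb1, Bag3, Hspa1a and Hspa1b showed no called change in any comparison, unlike the inducible Hsp90aa1 and Hsph1 above. Hsf1, the factor itself, had 33.8 to 39.6 CPM in the 6 libraries (log2 change against vehicle -0.01 ± 0.0869, adjusted p = 0.965). Dnajb1, a heat-inducible DnaJ gene, had 30.2 to 37.8 CPM (-0.09 ± 0.0909, adjusted p = 0.479), and Bag3, an HSP70 co-chaperone of selective autophagy, 11.3 to 14.7 CPM (-0.23 ± 0.138, adjusted p = 0.232). The inducible HSP70 genes Hspa1a and Hspa1b stayed between 0.968 and 1.98 CPM. Of their transcripts' 50-base words 58.8% (Hspa1a) and 62.3% (Hspa1b) occur in the other gene, so the split of reads between them is uncertain.

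All 3 mitochondrial members had their lowest levels under the drugs. The highest and lowest of their group means differed by a factor of 1.45 to 1.62. This factor was 1.04 to 1.44 for the ER members and 1.09 to 1.55 for the cytosolic members, with a median of 1.19 for both. Hspd1, which encodes the ring of the mitochondrial chaperonin HSP60, had 882 and 923 in day 0 cells, 808 and 806 under vehicle and 604 and 639 under the drugs CPM. The 3 groups did not overlap, with day 0 highest. The log2 change was -0.38 ± 0.0773 against vehicle (adjusted p = 0.00256) and -0.54 ± 0.0773 against day 0 (adjusted p = 0.000133), and the first was lost only without drugs replicate 1 (adjusted p = 0.0839; range 1.94e-05 to 0.0839). Hspe1, the lid of the same chaperonin, had 107 and 86.8 in day 0 cells, 73.4 and 89.4 under vehicle and 64.2 and 68.5 under the drugs CPM. It missed the threshold against vehicle (-0.29 ± 0.108, adjusted p = 0.0563) and passed it against day 0 (-0.55 ± 0.107, adjusted p = 0.00122), where removal of the length trend gave -0.29 and kept the call.

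Hspa9, the mitochondrial HSP70 mortalin, had 872 and 874 in day 0 cells, 724 and 674 under vehicle and 523 and 554 under the drugs CPM. It fell at each step, by a log2 change of -0.32 ± 0.0782 for vehicle against day 0 (adjusted p = 0.026), -0.38 ± 0.0784 for drugs against vehicle (adjusted p = 0.00281) and -0.70 ± 0.0785 for drugs against day 0 (adjusted p = 1.72e-05). The second was lost only without drugs replicate 1 (adjusted p = 0.0857; range 2.07e-05 to 0.0857), while the first was lost under 7 of 14 alternatives (range 0.00103 to 0.135, highest without vehicle replicate 2; log2 change -0.20 with library totals). The falls from day 0 of all 3 genes were called under all 14 alternatives.

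Hspd1 and Hspe1 lie head to head on chromosome 1, Hspd1 on the minus strand from 55077834 to 55087932 and Hspe1 on the plus strand from 55088148 to 55091317. The 215 bases between the annotated starts therefore serve as promoter for both, which is why they are printed (chr1:55087933-55088147, plus strand, along Hspe1). The capitals mark 2 overlapping matches to the heat shock element searched, GAA, 2 bases, TTC, 2 bases, GAA, 1 on each strand:
Hspe1: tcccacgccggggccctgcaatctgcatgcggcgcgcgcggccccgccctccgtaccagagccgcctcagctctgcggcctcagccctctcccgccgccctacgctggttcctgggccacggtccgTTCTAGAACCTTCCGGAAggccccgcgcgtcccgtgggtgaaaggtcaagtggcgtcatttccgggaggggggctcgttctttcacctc
This element occurred in 0.603% of all windows. Among the 9 cytosolic and mitochondrial members with a window it was found for these 2 genes and for Hsph1, in whose window it lies after the annotated start, and among the 22 ER members with a window for 0. Only exact matches inside the window were counted, so a gene without a match may still hold a heat shock element. The 3 genes with a match had their lowest group means under the drugs. So did the cytosolic members with a window and without a match, Hspa4, Dnajb1, Dnaja1, Hspa1a, Hspa1b and Bag3. This order thus did not set the 3 matched genes apart. Hspa8, Hsp90aa1, Hsp90ab1, Hsf1 and Hspa9 had no window.

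Summed by compartment, the ER members made up 8462 and 8899 CPM at day 0, 8511 and 8666 under vehicle and 9057 and 9522 under the drugs. The cytosolic members summed to 7751 and 8649, 8191 and 8208, and 7712 and 7804 CPM. The mitochondrial members summed to 1861 and 1884, 1606 and 1569, and 1191 and 1261 CPM, without overlap between any groups. Calr alone contributes at least 1899 CPM to the ER sum and 3 genes carry most of the cytosolic one, so these sums describe abundant genes.

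Ratios within a library do not depend on its scaling. The ER to cytosolic ratio was 1.09 and 1.03 at day 0, 1.04 and 1.06 under vehicle and 1.17 and 1.22 under the drugs, so the drug libraries lay above the other 4, which overlapped. The ER to mitochondrial ratio was 4.55 and 4.72, 5.30 and 5.52, and 7.61 and 7.55, and the mitochondrial to cytosolic ratio was 0.240 and 0.218, 0.196 and 0.191, and 0.154 and 0.162. Both of these separated all 3 groups. Among the HSP70 genes of the compartments, the ratio of Hspa9 to Hspa8 fell from 0.435 and 0.398 through 0.320 and 0.276 to 0.197 and 0.212, while that of Hspa5 to Hspa8 stayed within 0.350 to 0.386 in all 6 libraries. No test of these ratios was made, because an exact two-sided permutation test of 2 against 2 libraries cannot give a p below 0.333.

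**Figure D4:**
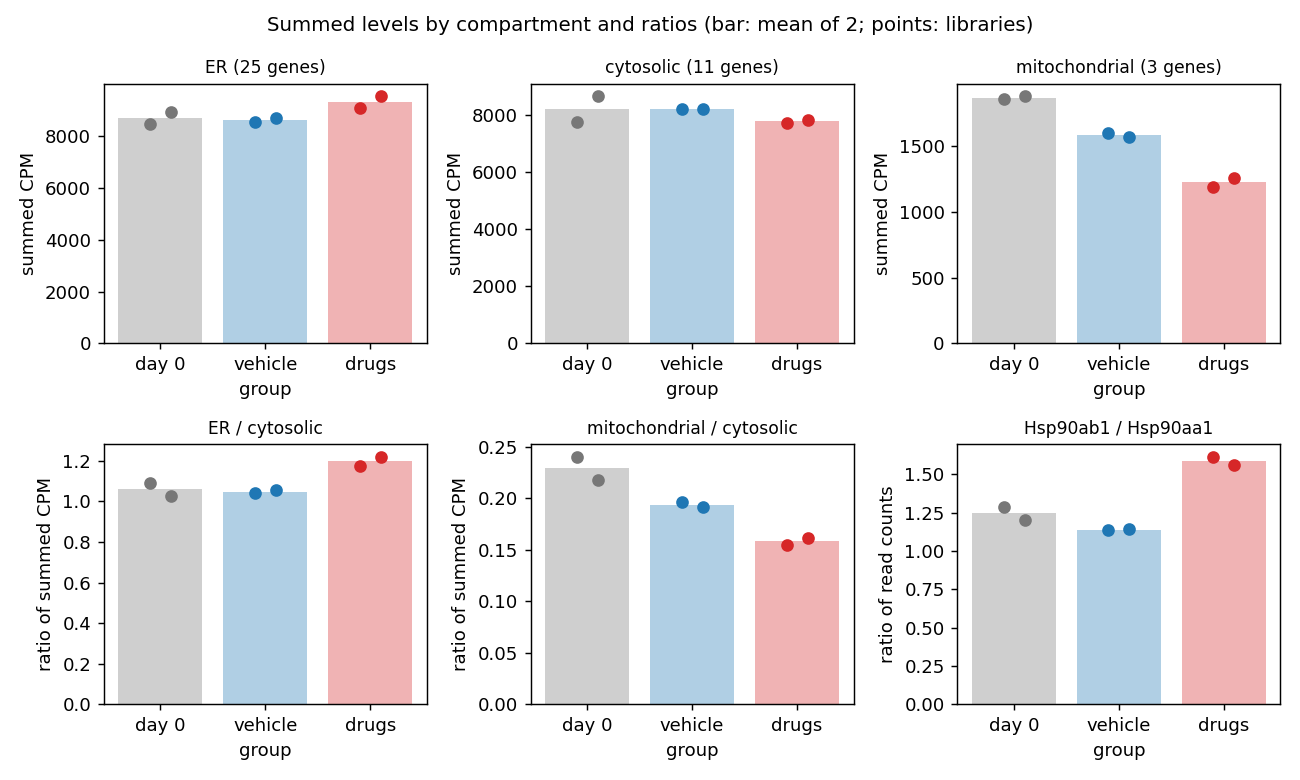
Summed CPM of the 25 ER, 11 cytosolic and 3 mitochondrial members, the ER to cytosolic and mitochondrial to cytosolic ratios of these sums, and the ratio of Hsp90ab1 to Hsp90aa1 read counts. Bars show the mean of 2 libraries and points each library, with all vertical axes starting at 0. The mitochondrial sum steps down from day 0 through vehicle to drugs, and the ER to cytosolic ratio is highest in the 2 drug libraries, at 1.17 and 1.22.

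The second comparison, vehicle on day 3 against untreated cells on day 0, measured 3 days of culture with solvent and changed few members. Of the 25 ER members 0 were higher and 1, Ern1, lower, and of the 14 others 0 were higher and 1, Hspa9, lower, against 3.75% higher and 3.99% lower (7.74% in either direction) over all tested genes. At an unadjusted p under 0.05 the edgeR counts were 1 and 4 for the ER members and 1 and 2 for the others, and DESeq2 called the same numbers as edgeR. The medians were -0.016 and -0.11, beside -0.017 over all genes. Both vehicle libraries lay above both day 0 libraries for 8 ER members and below for 7, and for 2 and 7 of the others, where all genes gave 23.9% and 26.9%. With library totals in place of TMM, 5 ER members were higher and 1 lower and 2 of the others higher and 0 lower, so the direction of small changes in this comparison depends on the scaling. Without untreated replicate 2 the ER counts were 1 higher and 4 lower.

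The third comparison, drugs on day 3 against day 0, joins culture time and treatment and shares libraries with both of the others. Of the ER members 9 were higher and 2 lower (median 0.086), and of the cytosolic and mitochondrial members 1 was higher and 7 lower (median -0.27), against 22.7% higher and 21.2% lower (43.9% in either direction) over all tested genes and a median of -0.0075. The ER rises were Atf6, Eif2ak3, Xbp1, Hspa5, Dnajc3, Pdia3, P4hb, Syvn1 and Edem2, and the falls Manf and Sel1l. Of the ER members called higher than vehicle, Atf6, Syvn1 and Edem2 were thus also called higher than day 0. Ern1, Dnajb9, Calr and Pdia4 were not. The cytosolic and mitochondrial members that fell were Hspa4, Hsp90aa1, Hsph1, Dnaja1, Hspa9, Hspd1 and Hspe1, and Hspa8 rose. Of these 19 calls those of Eif2ak3, Edem2, Hspa9, Hspd1 and Hspe1 held under all 14 alternatives, and the other 14 were lost without drugs replicate 1 (adjusted p from 0.0519 for Hsph1 to 0.203 for P4hb). Both drug libraries lay above both day 0 libraries for 11 ER members and below for 5, and for 1 and 12 of the others, where all genes gave 37.2% and 36.1%. Without drugs replicate 1 the counts were 2 ER members higher and 0 lower, with 0 of the others higher and 3 lower. Without drugs replicate 2 they were 4 and 1, with 0 and 5, and without untreated replicate 1 they were 6 and 1, with 1 and 7. Without untreated replicate 2 they were 8 and 4, with 1 and 7, and with library totals 10 and 0, with 1 and 6.

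Other genes of the same pathways, taken from lists that leave the 39 members out, were counted in the same fit and are read against the 18.1% higher and 13.8% lower of all tested genes for drugs against vehicle. Among 28 tested genes of ER folding 5 (17.9%) were higher and 2 (7.14%) lower under the drugs than under vehicle, a share of higher genes near that of all genes, with a median log2 change of -0.025 and 16 negative changes. The higher count became 2 with DESeq2, without vehicle replicate 1 and without drugs replicate 2, and 3 without drugs replicate 1. Dnajc10, an ER DnaJ reductase, had 302 and 284 in day 0 cells, 225 and 217 under vehicle and 498 and 510.5 under the drugs CPM (1.19 ± 0.0736 on the log2 scale against vehicle, adjusted p = 7.83e-08), the lowest under vehicle and far the highest under the drugs. Of the oxidases that supply disulfide bonds, Ero1lb rose by 0.60 ± 0.0813 on the log2 scale (adjusted p = 0.000105; 31.2 and 31.9 CPM under vehicle, 48.6 and 47.1 under the drugs) and Ero1l fell, with a log2 change of -0.73 ± 0.0767 (adjusted p = 1.09e-05; 479 and 448 and then 276 and 281 CPM). Mogs, the glucosidase that begins glycan trimming, fell by a log2 change of -0.67 ± 0.0690 (adjusted p = 9.29e-06).

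Of 22 tested genes of ER-associated degradation 3 (13.6%) were higher and 1 (4.55%) lower, both shares below those of all genes, with a median of -0.043 and 13 negative changes. The balance depended on the settings, with 2 higher and 4 lower for library totals, 3 and 4 with only the 2 groups compared, 4 and 4 with the length trend removed, and 0 lower with DESeq2, without vehicle replicate 1 and without either drug library. Edem3, another gene of the Edem family, went from 217 and 201 CPM under vehicle up to 353 and 327 (0.70 ± 0.0789 on the log2 scale, adjusted p = 2.15e-05), as Edem2 did, and Derl2, a membrane channel component of this pathway, rose by 0.40 ± 0.0891 (adjusted p = 0.00407). Rnf139, an ER ubiquitin ligase, fell by -0.24 ± 0.0743 (adjusted p = 0.025). Of 23 genes of translocation and N-glycosylation 0 were higher and 5 (21.7%) lower (median -0.14; edgeR; 0 and 7 at an unadjusted p under 0.05, 0 and 3 by DESeq2), including the oligosaccharyltransferase subunit Rpn1 (-0.39 ± 0.0748, adjusted p = 0.00151) and the signal peptidase subunit Spcs3 (-0.31 ± 0.0711, adjusted p = 0.00559). The lower count was 1 without drugs replicate 1, 3 without drugs replicate 2 and 8 with only the 2 groups compared, and removal of the length trend gave 2 higher and 8 lower.

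Of the genes listed here for the PERK branch, those that passed the test were lower. Whether PERK set their levels was not tested. Of the 8 tested genes of this list, all outside the member list, 0 were higher and 4 (50%) lower under the drugs than under vehicle (median -0.22, edgeR). These counts were 0 and 4 at an unadjusted p under 0.05 and 0 and 3 by DESeq2. The lower count was 1 without drugs replicate 1 and 2 without drugs replicate 2. With vehicle against day 0 again 0 were higher and 4 lower, beside 3.99% lower over all genes (median -0.75; 0 and 6 unadjusted, 0 and 4 by DESeq2), and with drugs against day 0 it was 0 and 7, beside 21.2% lower over all genes (median -1.07; 1 and 7 unadjusted, 0 and 7 by DESeq2). Trib3, a pseudokinase induced by ATF4, had 34.8 and 22.02 in day 0 cells, 9.49 and 9.70 under vehicle and 4.00 and 3.29 under the drugs CPM and fell at each step (log2 change -1.40 ± 0.260 for drugs against vehicle, adjusted p = 0.00126). Ppp1r15a, the stress-induced phosphatase subunit GADD34, had 26.6 and 20.3 in day 0 cells, 9.17 and 8.28 under vehicle and 8.33 and 8.20 under the drugs CPM, a fall between day 0 and vehicle (-1.44 ± 0.148, adjusted p = 0.000133) with overlapping levels on day 3. Its constitutive paralog Ppp1r15b fell by -0.27 ± 0.0666 under the drugs (adjusted p = 0.00813). Outside the naming rule, and chosen after their values were seen, Atf4 had 255 and 191 in day 0 cells, 130.3 and 141 under vehicle and 98.4 and 107 under the drugs CPM (-0.40 ± 0.114 for drugs against vehicle, adjusted p = 0.0164) and Ddit3, the gene of CHOP, 79.3 and 58.3 in day 0 cells, 37.5 and 36.96 under vehicle and 33.2 and 35.2 under the drugs CPM (-0.12 ± 0.127, adjusted p = 0.5). The gene of the sensor PERK itself, Eif2ak3, was highest under the drugs in the same libraries.

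Among 12 other genes that process or relay the unfolded protein response 4 (33.3%) were higher and 1 (8.33%) lower under the drugs than under vehicle, with 7 and 1 after removal of the length trend and 3 and 0 without drugs replicate 1. Creb3, a membrane-bound relative of ATF6, went from 4.03 and 4.10 CPM under vehicle up to 14.4 and 13.4 (1.77 ± 0.158 on the log2 scale, adjusted p = 2.61e-06), and Map3k5, the kinase ASK1, rose by 0.89 ± 0.0771 (adjusted p = 1.96e-06). Tmbim6, an ER membrane protein that inhibits cell death, fell by -0.36 ± 0.0745 (adjusted p = 0.00257).

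Among cytosolic and mitochondrial folding genes outside the member list more were called lower than higher. Of 30 tested cytosolic genes 3 (10%) were higher and 12 (40%) lower under the drugs than under vehicle. The HSP90 co-chaperone Fkbp4 fell by -0.40 ± 0.0731 (adjusted p = 0.00126) and the ribosome-bound Dnajc2 by -0.38 ± 0.0753 (adjusted p = 0.00204), whereas Dnajb5 rose from 2.37 and 1.17 CPM to 8.17 and 7.36 (2.11 ± 0.256, adjusted p = 4.16e-05) and the HSP70 gene Hspa2 from 5.77 and 6.35 CPM to 9.85 and 10.1 (0.72 ± 0.150, adjusted p = 0.00285). Of 14 genes of the CCT chaperonin and prefoldin, which fold actin and tubulin, 0 were higher and 7 (50%) lower (edgeR; 0 and 9 unadjusted, 0 and 5 by DESeq2), such as Cct7 (-0.38 ± 0.0710, adjusted p = 0.00141) and Cct3 (-0.29 ± 0.0745, adjusted p = 0.0107). Of 14 other mitochondrial chaperones and proteases 0 were higher and 5 (35.7%) lower (0 and 6 unadjusted, 0 and 4 by DESeq2), including the proteases Lonp1 (-0.36 ± 0.0731, adjusted p = 0.00253) and Htra2 (-0.36 ± 0.0821, adjusted p = 0.00481). Without drugs replicate 1 the lower counts of these 3 lists became 2, 0 and 0, and without drugs replicate 2 they became 9, 1 and 3. Without vehicle replicate 2 they were 8, 2 and 2.

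**Figure D5:**
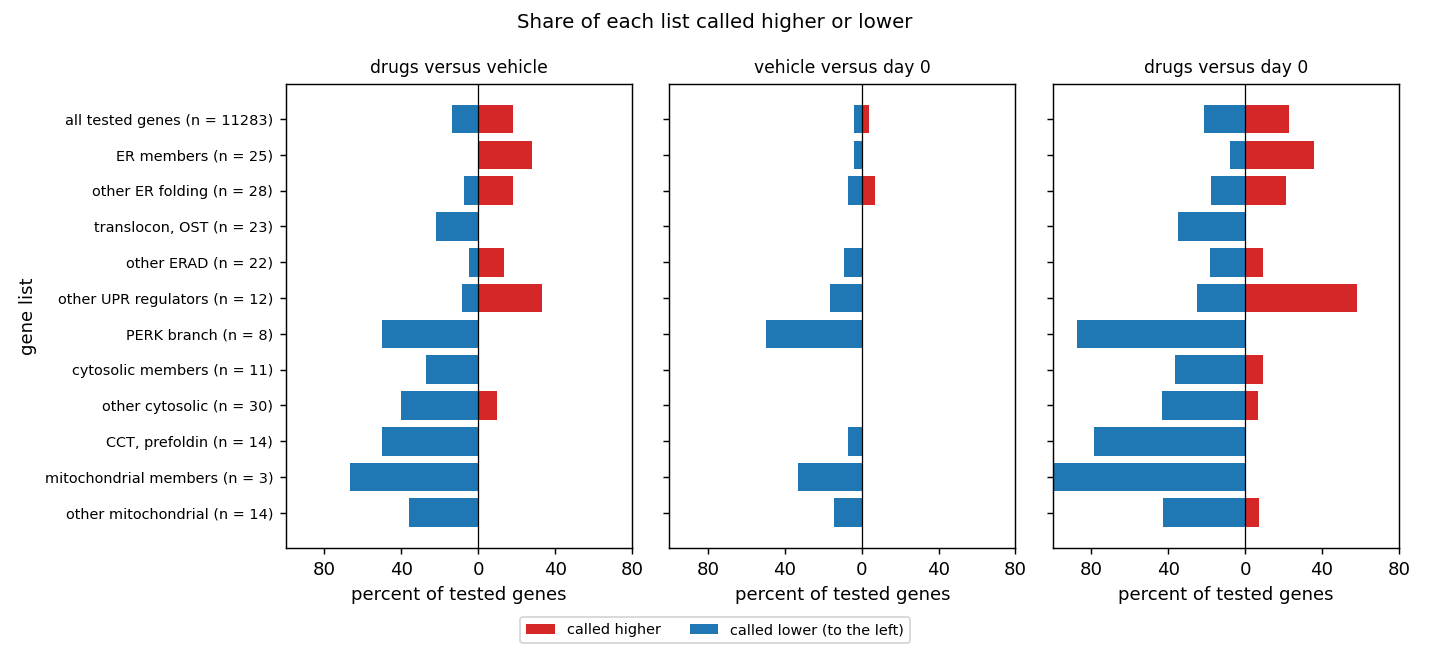
Percent of tested genes called higher (right, red) or lower (left, blue) in the member groups and the other pathway lists, for each comparison, beside all tested genes. ER members extend only to the right for drugs against vehicle, and the PERK branch, CCT and mitochondrial member bars only to the left.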

How the data were processed

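Polyadenylated RNA of 6 libraries, 3 groups of 2, was sequenced. The authors deposited a table of read counts per gene without normalisation, and its Length column, deposited in base pairs, served for levels per kilobase. Per the submitters' processing notes STAR 2.7.0f, deepTools 3.0.2 and the mm10 build were used, and the labels call the table featurecount. For strand use in counting, reads with several matches and annotation release, the settings were not given in the sources used here. Overlapping and near-identical genes therefore have uncertain values.

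Total counts ranged from 11305666 to 16948697, of which Rn45s, the ribosomal RNA precursor, took 14.6% to 24.6%. All genes were fitted in 1 model of 3 groups with edgeR 4.0.16 under R 4.3.3 (filterByExpr with a minimum count of 10, TMM scaling, quasi-likelihood F test, 3 residual degrees of freedom, common biological coefficient of variation 0.0592). P-values were adjusted by Benjamini-Hochberg over 11283 genes at a threshold of 0.05. The SE was derived from the F statistic. Replicates varied beyond counting error (chi-square divided by its degrees of freedom 6.49 at day 0, 4.20 for vehicle and 1.70 for the drugs, Rn45s left out).

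The members and the gene lists were chosen with earlier results of these data known, so lists are described by counts beside those of all genes and carry no test. All members are named, and from each other list up to 2 called genes per direction and comparison with the smallest p were eligible to be named. Of 237 list genes 229 were matched by symbol and 8 by an older symbol. Alternatives were DESeq2 1.42.0, other scalings, no filter on low counts, only the 2 groups compared, a block for replicate number, each library left out and, added after the data were seen, removal of a gene length trend. The fit was tested on simulated counts with 50 genes changed at each size between drugs and vehicle. It called 8% of them at 1.2-fold, 52% at 1.3-fold, 80% at 1.5-fold and 88% at 2-fold. There were 11 false calls among 11083 unchanged genes. Most genes were thus unchanged in the simulation, whereas 31.9% of all tested genes were called between drugs and vehicle in the data. The adjusted threshold was therefore stricter in the simulation, and these shares do not carry over to the real fit. A member that was not called may still differ by a small factor. Promoter sequences are from RefSeq (GRCm38.p6), with 31 of 39 members matched. Protein sequences were not analysed here.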

Additional observations from a re-analysis of the deposited data

How the results depend on the processing

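No member changed direction and call together under any of the 14 alternatives. For drugs against vehicle, Ern1, Edem2 and Hsph1 were called under all 14. DESeq2 called 4 ER members higher. Removal of the length trend, chosen after seeing the data, called 15 ER members higher and 1 of the cytosolic and mitochondrial members higher, with an ER median of 0.174, and library totals gave an ER median of 0.113.

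For vehicle against day 0 the counts over all genes were 255 higher and 236 lower with DESeq2, 1741 and 216 with library totals, 821 and 843 with no filter on low counts, 269 and 258 with only the 2 groups compared, and 745 lower with the length trend removed. Library totals gave 5 ER members and 2 others higher and 0 others lower, and medians of 0.110 (ER) and 0.0096 (others). The lack of a filter gave 1 ER member higher and 4 lower, with 1 of the others higher and 2 lower. Removal of the length trend gave 1 ER member higher and 4 lower and 1 of the others higher, with medians of 0.012 and -0.059. With only the 2 groups compared 0 of the others were lower. For drugs against day 0 library totals gave 1321 genes and 0 ER members lower and medians of 0.179 (ER) and -0.182 (others). Removal of the length trend gave 11 ER members higher and 3 lower, with an ER median of 0.156. Calr, Pdia4 and Pdia6 were then also called higher and Edem1 lower, and Atf6 was no longer called.

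The replicate numbers are not said to pair cultures. The correlation of deviations between libraries of the same number was 0.0807 between drugs and vehicle, -0.199 between vehicle and day 0, and -0.0604 between drugs and day 0. With the replicate number as a block, vehicle against day 0 gave 222 genes higher and 261 lower and 0 cytosolic and mitochondrial members lower, and drugs against vehicle gave 5 ER members higher and 5 others lower. Calls not made under the block were Calr and Pdia4 for drugs against vehicle (adjusted p = 0.0790 and 0.0639, edgeR), Hspa9 for vehicle against day 0 (0.0859), and Pdia3 and P4hb for drugs against day 0 (0.0781 and 0.0502). The lower count of CCT and prefoldin genes for drugs against vehicle was 4 under the block, that of other mitochondrial genes 3 and that of ER-associated degradation 0, and the higher count of other ER folding genes was 3.

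For drugs against vehicle, leaving out each library in turn gave 1251 to 2291 higher and 582 to 1900 lower over all genes, 2 to 9 higher and 0 to 1 lower for the ER members (median 0.094 to 0.186), and 0 higher and 1 to 7 lower for the others (median -0.313 to -0.198). For vehicle against day 0, leaving out each library in turn gave 155 to 851 higher and 196 to 1161 lower over all genes, 0 to 1 higher and 1 to 4 lower for the ER members (median -0.034 to 0.0080), and 0 to 1 higher and 0 to 2 lower for the others (median -0.116 to -0.071). For drugs against day 0, leaving out each library in turn gave 1667 to 2632 higher and 1205 to 2625 lower over all genes, 2 to 8 higher and 0 to 4 lower for the ER members (median 0.017 to 0.113), and 0 to 1 higher and 3 to 7 lower for the others (median -0.324 to -0.233).

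Depth and the 2 libraries per group limit the size of change that is called. A library left alone in its group is assumed to vary like the other groups. The cause of these differences between settings was not tested, except that leaving out a library leaves fewer libraries.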
